A study of Capra hircus with 8 samples.

Results

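At the 8-cell stage, goat embryos made by nuclear transfer were compared, gene by gene, with embryos made by fertilisation. In the deposited table of messenger RNA levels, 22107 entries are listed. Of these, 10303 stood at 1 FPKM or more (fragments per kilobase of gene and per 1000000 fragments) in at least 2 of the 4 libraries. After 333 entries that are also listed as annotated long non-coding RNAs had been set aside, 9970 genes remained, and these are described here. The fertilised group is IVF (in vitro fertilisation, 2 libraries) and the cloned group is SCNT (somatic cell nuclear transfer, 2 libraries). All 4 were Smart-seq2 libraries of polyadenylated RNA from directly lysed 8-cell embryos. The labels give no breed, donor cell type, number of embryos per library or further treatment, and they do not say whether the replicates are separate pools. P-values therefore measure the spread between these samples, which may be technical.

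In nuclear transfer, the nucleus of a body cell replaces that of an egg, and the egg's contents have to return its chromatin to a state from which development can start. Early cleavage runs on RNA and protein that the oocyte stored. Maternal RNA is then degraded while the embryo starts to transcribe its own genome, a step that in goats and other ruminants takes place at about the 8-cell stage. A difference in steady level at this stage can therefore lie in stored RNA, in its decay or in new transcription, and these cannot be told apart in polyadenylated RNA measured at 1 stage. In whole embryos, fewer cells with a transcript and less of it per cell cannot be told apart either.

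In units of 1000000 (M), the libraries had 27.5 and 30.3 M reads (IVF replicates 1 and 2) and 28.4 and 28.5 M reads (SCNT replicates 1 and 2), as recovered from the steps between low FPKM values, so 1 FPKM was about 27.5 to 30.3 reads per kilobase and 3 reads on a 1-kilobase transcript were about 0.0989 to 0.109 FPKM. PCR copies are included. Of the genes described, 8431 and 8591 reached 1 FPKM in the IVF libraries, against 9471 and 9606 in the SCNT libraries. The SCNT libraries were less alike than the IVF libraries. The median absolute difference between replicates on the log2(FPKM + 1) scale was 0.625 in SCNT and 0.294 in IVF. The median over all genes of the difference from the IVF mean was 0.34 in SCNT replicate 1 and 0.53 in SCNT replicate 2, and a change is read against these medians where gene lists are described.

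More genes were higher than lower in SCNT embryos. A gene is called here when limma gives it a Benjamini-Hochberg adjusted p under 0.05 over all 10303 tested entries. It is counted as held in both SCNT libraries when the nearest SCNT and IVF libraries lie at least 1 apart on the log2(FPKM + 1) scale. That distance is called the gap, and it is a description with no test. Of the 9970 genes, 305 were called higher (3.06%) and 81 lower (0.812%); over all tested entries, lncRNAs included, the shares were 3.02% and 0.844%. Held genes numbered 962 higher (9.65%) and 185 lower (1.86%), with 9.44% and 1.99% over all tested entries, and all called genes were among them. The groups did not overlap for 4764 genes with higher SCNT values and 1650 with lower ones, and over all tested entries for 46.9% and 17.1%. Counts of called members of a gene list or class are read against the 3.06% and 0.812% of all genes described. An exact permutation test of 2 libraries against 2 cannot give a two-sided p below 0.333, so single genes rest on the model across genes.

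Part of this count follows from the entry rule. A gene that reached 1 FPKM in the SCNT pair alone had to be higher there, and 943 genes entered that way, 285 of them held higher; 145 entered through the IVF pair alone, 49 of them held lower. Among the 8882 genes at 1 FPKM or more in a library of each group, 677 were held higher and 136 lower, and 186 were called higher and 52 lower. Counts of such genes in a list or class are read against these numbers.

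The balance between the directions depended on how the libraries were scaled to each other. Higher genes made up 79.02% of the calls as deposited, 86.8% (1121 higher, 171 lower) after each library was rescaled to the same sum, 47.6% (119 and 131) after quantile normalization and 42.9% (155 and 206) after median centring. The median log2 difference of all genes was 0.41 as deposited and 0.46, 0.01 and −0.08 under these scalings. Under each of them, 186 of the called genes were also called, 109 higher and 77 lower, of 305 and 81. A single library weighed more. Without SCNT replicate 2, 45 genes were called, 35 of them among those called with all libraries; without SCNT replicate 1 there were 3759, and 165 and 249 without IVF replicates 1 and 2. The library left alone in its group is taken to vary like the other pair in these fits.

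Which differences were shared by both SCNT libraries can be read from each library's own distance to the IVF mean. These distances share the IVF libraries, so points near the diagonal in the plot of both libraries are no separate evidence. SCNT replicate 1 lay at least 1 above both IVF libraries for 1136 genes and at least 1 below for 316. SCNT replicate 2 did so for 3020 and 915 genes. The libraries lay beyond the IVF pair by this margin on opposite sides in 4 genes with replicate 1 higher and 1 gene with replicate 2 higher. In 848 of the 962 genes held higher, SCNT replicate 2 had the higher value.

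**Figure D1:**
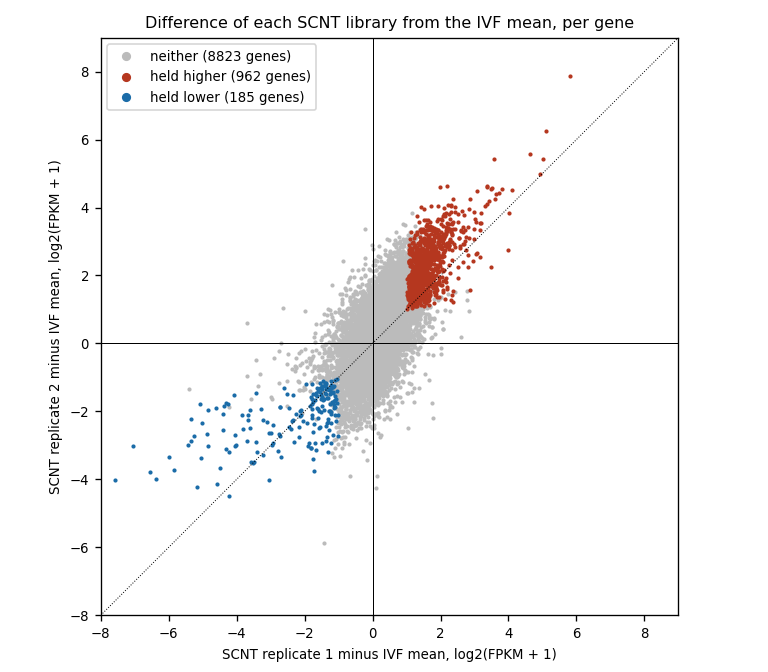
Each point is 1 of the 9970 genes, with its value in SCNT replicate 1 (x axis) and SCNT replicate 2 (y axis) minus the mean of the IVF libraries, on the log2(FPKM + 1) scale; red and blue points are the 962 genes held higher and the 185 held lower, and the dotted line marks equal distances. Held genes lie in the upper right and lower left of the plot, and most red points lie above the dotted line.

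Among genes with a symbol, the widest gap upward was that of PI3, which encodes elafin, an inhibitor of elastase. It stood at 3.49 and 0.591 FPKM in the IVF libraries, against 148 and 619.8 FPKM in the SCNT libraries. TKT, a transketolase that makes ribose phosphate, stood at 1.76 and 0.634 FPKM in IVF, against 63.7 and 66.4 FPKM in SCNT. The SCNT libraries were nearly level for TKT, whereas the SCNT libraries lay apart for PI3. CCR7, a chemokine receptor of lymphocytes, had 0.0171 and 0.634 and then 30.8 and 60.9 FPKM, and SCPEP1, a serine carboxypeptidase, 8.01 and 7.32 and 121 and 201 FPKM. FOS, which forms AP-1 with JUN proteins, had 0.118 and 0.0612 FPKM in IVF, against 11.9 and 45.6 FPKM in SCNT. In each of these 5 genes the lower SCNT library lay more than 3 above the higher IVF library on the log2 scale (gaps of 5.05, 4.55, 4.28, 3.76 and 3.53), and the log2 differences were 6.83 ± 0.73, 4.96 ± 0.46, 5.10 ± 0.52, 4.18 ± 0.43 and 4.49 ± 0.62 (SE), with limma adjusted p from 0.0144 to 0.0223.

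These 5 belong to a set of the 15 called genes with the widest gap upward, and the others described here fall into several roles. SNX11, a sorting nexin of endosomes, had 33.4 and 35.8 against 3.52 and 3.26 FPKM (SCNT against IVF, as in the values that follow). Among enzymes and carriers were CHAC1, which degrades glutathione and is induced by amino acid stress (27.3 and 43.4 against 2.34 and 2.62 FPKM) and the phosphate transporter gene SLC34A2 (18.3 and 28.7 against 1.01 and 1.17 FPKM). The autophagy receptor gene SQSTM1 had 21.6 and 36.8 against 0.167 and 1.80 FPKM. ZFP36, which binds AU-rich messages and speeds their decay, had 12.2 and 15.9 against 0.700 and 0.616 FPKM. SEBOX, a homeobox gene of oocytes, had 31.9 and 50.5 against 0.663 and 3.37 FPKM, the metalloproteinase inhibitor gene TIMP1 11.2 and 12.9 against 0.156 and 0.637 FPKM and LRRC58 42.7 and 57.1 against 3.39 and 0.504 FPKM. All 15 genes of the set were also called under each of the 3 other scalings. Without SCNT replicate 2, 5 of the 15 were called, among them TKT, CCR7, SCPEP1 and FOS; without IVF replicate 1, 14 of 15 were called, and 15 without either other library.

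Downward, the widest gap was that of WNT16, a secreted Wnt ligand. It stood at 51.8 and 52.03 FPKM in the IVF libraries, against 1.67 and 5.10 FPKM in the SCNT libraries, and it fell by 3.71 on the log2 scale (SE 0.51, limma adjusted p = 0.0223). HMGN5, a nucleosome-binding protein that loosens chromatin, had 17.02 and 12.8 FPKM in IVF, against 0.502 and 0.712 FPKM in SCNT. It entered through the IVF pair alone, so it had to be lower in SCNT. RSRP1, an arginine and serine rich nuclear protein gene, had 26.5 and 33.4 and 2.92 and 2.91 FPKM. For all 3 the groups lay far apart, as the choice by gap required. The SCNT libraries were nearly level for RSRP1 but not for WNT16. SETD9, a SET-domain gene, had 79.7 and 79.7 FPKM in IVF, against 15.2 and 9.85 FPKM in SCNT.

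CETN2 encodes centrin 2, a calcium-binding protein of centrioles that also takes part in nucleotide excision repair and nuclear export. Its transcript was abundant in IVF embryos, at 2259.6 and 2123 FPKM, and stood at 594 and 284 FPKM in SCNT (log2 difference −2.41 ± 0.45, limma adjusted p = 0.0387). C1D, a cofactor of the nuclear exosome, which trims and degrades RNA, had 4.65 and 4.43 against 86.02 and 31.1 FPKM, and KIAA0101, whose protein binds the replication clamp PCNA, 6.49 and 3.96 against 40.4 and 26.6 FPKM. The prostaglandin-degrading enzyme gene HPGD had 1.70 and 1.07 against 20.9 and 14.8 FPKM, the receptor gene OLR1 0.0182 and 1.59 against 9.08 and 8.55 FPKM and the co-chaperone gene DNAJC12 0.457 and 2.16 against 26.99 and 10.1 FPKM. The rest were NUDCD2 (60.7 and 49.1 against 307 and 246 FPKM), the filamin-binding RFLNB (4.50 and 1.56 against 21.2 and 18.3 FPKM), the nucleotide sugar transporter gene SLC35D2 (2.57 and 5.53 against 21.7 and 23.9 FPKM), the proteoglycan gene SRGN (21.02 and 8.11 against 79.1 and 73.6 FPKM) and FAM133A (7.82 and 2.66 against 31.03 and 28.3 FPKM). These 15 genes were chosen by their gap, so their groups could not overlap. They were called lower under each other scaling. Without SCNT replicate 2 only WNT16 and SETD9 were called, without IVF replicate 1 4 of the 15, without IVF replicate 2 6, and without SCNT replicate 1 all 15.

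**Figure D2:**
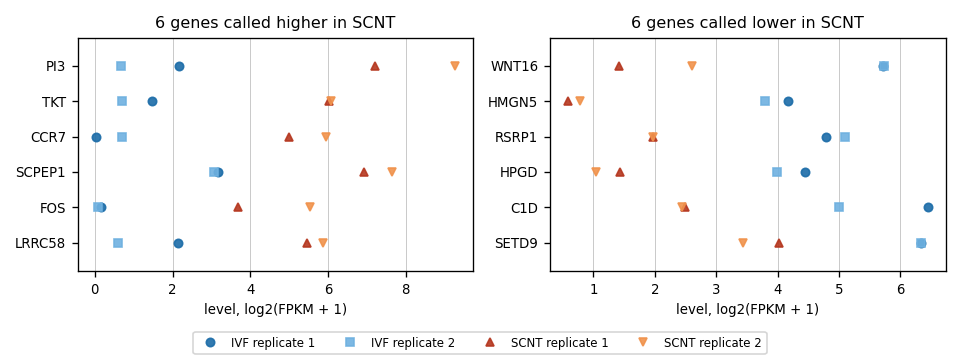
Level of the 6 genes called higher (left) and the 6 called lower (right) with the widest gap, on the log2(FPKM + 1) scale; each marker is 1 library. In every gene shown both SCNT markers lie on the same side of both IVF markers, as the choice by gap requires. The SCNT replicates of PI3 are farther apart than those of TKT.

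Among held genes with a symbol, the largest differences in FPKM itself, as opposed to the log scale, belonged to PI3, CETN2 and 8 further genes. TMSB4X, which encodes the actin-binding peptide thymosin beta 4, stood at 16663 and 11359.5 FPKM in IVF, against 4901 and 5439 FPKM in SCNT. The groups did not overlap, and it was not called (log2 difference −1.41 ± 0.42, limma adjusted p = 0.0754). BCL2L10, an oocyte-enriched member of the BCL2 family of survival proteins, had 3319 and 2230.1 against 686 and 776 FPKM and rose (log2 difference 1.90 ± 0.40, limma adjusted p = 0.0458). ZAR1L, a relative of the maternal-effect gene ZAR1, had 783 and 1566 against 195 and 184 FPKM and rose as well (limma adjusted p = 0.0330). MRPL37, of the mitochondrial ribosome, had 277 and 681 against 79.2 and 96.6 FPKM and rose (limma adjusted p = 0.0463). Of the 5 called genes among the 10, BCL2L10 and ZAR1L were also called without SCNT replicate 2 and PI3 alone without IVF replicate 1 or without IVF replicate 2, and BCL2L10 and MRPL37 lost their calls after median centring.

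Held but not called were RHOA, a small GTPase that organises actin (993 and 971 against 419 and 460.4 FPKM, limma adjusted p = 0.0853), and ACCSL (533 and 833 against 164 and 226 FPKM, 0.0527) on the higher side. On the lower side were NUP54, of the nuclear pore (626 and 427 against 1438 and 1331 FPKM, 0.0669), and C2H2orf66 (858 and 578 against 1853 and 1758 FPKM, 0.0740). Genes held lower took 8.67% and 7.05% of all FPKM in the IVF libraries, against 2.42% and 2.12% in the SCNT libraries. Genes held higher took 1.72% and 2.15% in IVF and 7.12% and 10.5% in SCNT. These shares follow from how held genes were chosen and are given as a description.

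Genes without a symbol, which carry a LOC number in RefSeq, took a larger share of the falls than of the rises. They made up 10.8% of the genes described (1075), 41.6% of those held lower (77 of 185) and 58.02% of those called lower (47 of 81). Among genes held higher their share was 9.56%, and among genes called higher 12.8%. Of 228 genes that RefSeq types as pseudogenes, 23 were held lower and 13 higher. The RefSeq table used here gives the type of these genes and not what they encode.

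Several of the LOC genes held lower are neighbours, which was noticed after the values were seen. In the RefSeq order of the genes described, 21 genes held lower stand in 4 unbroken runs of 3 to 9, and all 21 carry LOC numbers. The run of 9 includes LOC108634189, a protein-coding gene at 2475 and 1503 FPKM in IVF, against 19.4 and 140.4 FPKM in SCNT, and LOC108634190, at 47.9 and 32.2 and 0.113 and 1.16 FPKM. Summed over the run, the levels were 3520.4 and 2197 FPKM in IVF, against 46.8 and 274 FPKM in SCNT. In all 21 genes of the 4 runs, SCNT replicate 1 was the lowest library and SCNT replicate 2 lay between it and the IVF pair. Among them, LOC102178442, LOC102178721 and LOC102177360 entered through the IVF pair alone, so they had to be lower in SCNT.

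The run of 5 starts with LOC102172744 (0 and 4.20 against 89.6 and 75.2 FPKM), and its summed level was 999.8 and 681 FPKM in IVF, against 23.5 and 175 FPKM in SCNT. The run of 4, led by the pseudogene LOC102191368, had 447 and 504 FPKM in IVF, against 12.05 and 89.7 FPKM in SCNT. Outside the runs, LOC102168228 had 0.704 and 0.406 against 30.03 and 31.4 FPKM and the pseudogene LOC108636438 0.321 and 14.4 against 296 and 210.5 FPKM. Neighbouring LOC genes and pseudogenes can be near-identical copies that share reads, so their separate values are uncertain and the genes are not independent. Of the 6 LOC genes with the widest gap downward, 5 were called without SCNT replicate 2 (LOC102178442 was not), and all 6 were called under each other scaling and without any other library.

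**Figure D3:**
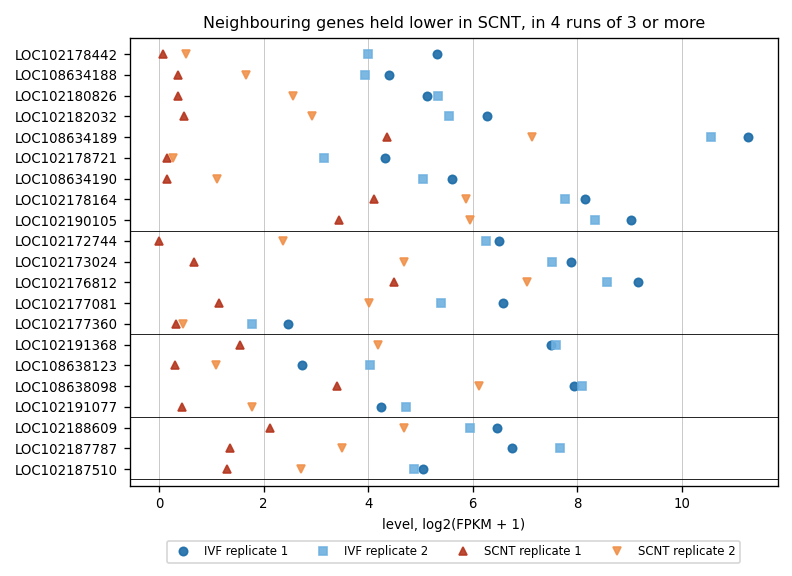
Level of the 21 neighbouring genes held lower, on the log2(FPKM + 1) scale, with 1 marker per library and lines between the runs of 9, 5, 4 and 3 genes. The markers of SCNT replicate 1 lie lowest and those of SCNT replicate 2 lie between them and both IVF libraries.

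LOC genes also had wide gaps upward. LOC102188237, a protein-coding gene, was listed at 0 and 0.118 FPKM in IVF, against 35.7 and 79.4 FPKM in SCNT. LOC102182249 stood at 4.91 and 0.157 and 83.5 and 111 FPKM and belongs to a run of 4 neighbours held higher, whose summed level was 293 and 267 FPKM in IVF, against 1044 and 2842 FPKM in SCNT. The others were LOC102180888 (10.5 and 23.2 against 0 and 0.0597 FPKM), LOC102187613 (9.60 and 16.3 against 0 and 0.0358 FPKM), LOC102185264 (9.91 and 17.2 against 0 and 0.205 FPKM) and LOC102182683 (16.98 and 22.02 against 1.22 and 0.726 FPKM). Runs of 3 or more genes held higher numbered 17 with 55 genes, 9 of them LOC genes, out of 939 genes held higher with a place in the order. One of these runs consists of the oocyte genes NLRP13 (54.4 and 105 against 10.5 and 20.9 FPKM), NLRP8 (45.5 and 78.9 against 6.32 and 14.02 FPKM) and NLRP5 (2.58 and 4.30 against 0.200 and 0.786 FPKM).

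Of all called genes, 30 were also called when any 1 of the 4 libraries was left out, 11 higher and 19 lower, and all 30 were called under each other scaling too. Those with a symbol included TKT, CCR7, SCPEP1, FOS and HAND1 on the higher side and WNT16 on the lower side, and 23 of the 30 carry LOC numbers. HAND1, a transcription factor of trophoblast and heart, was listed at 0 in both IVF libraries and stood at 10.3 and 3.73 FPKM in SCNT (limma adjusted p = 0.0295). For such a gene the fit sees spread in the SCNT pair alone. CCR7, FOS, LOC102188237, LOC102180888, LOC102187613, LOC102185264 and LOC108633282, also among the 30, likewise stood under 1 FPKM in both IVF libraries. These genes and HAND1 entered through the SCNT pair alone, so they had to be higher there. On the lower side, LOC102168228 and LOC102179924 entered through the IVF pair alone, so they had to be lower in SCNT.

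Among the functional classes, the embryo class had the largest share held higher, 24.1% of 133, and the oocyte list gave 16 of these 32. This class also holds imprinted genes and X-linked housekeeping genes. Of its 120 genes at 1 FPKM or more in a library of each group, 24 were held higher, against 7.62% of all such genes. Oocyte and maternal-effect genes supply the egg with its coat, its stored RNA and the subcortical complex that is needed for the first cleavages. Of 40 described, 7 rose (17.5%, against 3.06% of all genes described), none fell and 33 were not called, and 16 were held higher, against 9.65% of all genes described. The groups did not overlap in 32 with higher and 3 with lower SCNT values (46.9% and 17.1% of all tested entries). At 1 FPKM or more in a library of each group were 36, of which 13 were held higher (36.1%, against 7.62% of all such genes). Called higher were 7 of the 36, against 186 of all 8882 such genes. The median difference from the IVF mean was 0.72 in SCNT replicate 1 and 1.38 in replicate 2, above the medians of all genes (0.34 and 0.53) in both.

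Besides SEBOX, ZAR1L and BCL2L10, the called members were ASTL, an egg protease that cleaves the zona pellucida (34.9 and 43.2 against 3.30 and 5.93 FPKM, limma adjusted p = 0.0280), KHDC3L, of the subcortical maternal complex (87.5 and 99.1 against 18.8 and 26.3 FPKM, 0.0425), and NLRP8 and NLRP13. MOS, the kinase that keeps the egg arrested in metaphase, was held higher and not called (171 and 688 against 38.1 and 78.5 FPKM, 0.0586), as was NLRP5. BMP15, an oocyte growth factor gene, had 770.1 and 940.3 against 474 and 460.2 FPKM (0.160). Not every abundant oocyte transcript was higher. BTG4, which recruits the deadenylase that clears maternal RNA, stood at 3330.3 and 4246 FPKM in SCNT, against 5070.2 and 6039.7 FPKM in IVF (limma adjusted p = 0.373). Of the 7 called genes, ZAR1L and BCL2L10 were also called without SCNT replicate 2, SEBOX alone without IVF replicate 1 and 4 without IVF replicate 2, and 3 after median centring and 4 after quantile normalization.

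**Figure D4:**
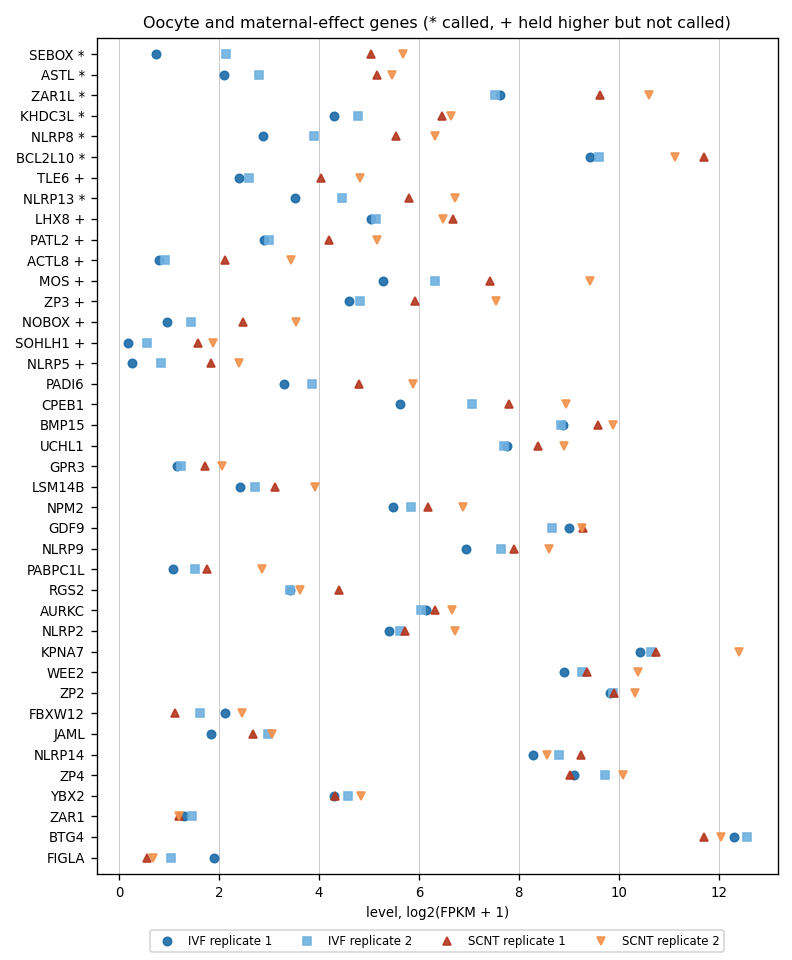
Level of the 40 oocyte and maternal-effect genes described, on the log2(FPKM + 1) scale, ordered by gap, with 1 marker per library; an asterisk marks the 7 called genes and a plus sign the 9 held higher but not called. In the upper rows both SCNT markers lie to the right of both IVF markers, while BTG4, among the lowest rows, has both SCNT markers to the left.

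Genes of genome activation, the set switched on when the embryo starts to transcribe, had medians of 0.91 and 1.11 in the 2 SCNT libraries, a closer pair than in the oocyte list. Of 17, SLC34A2 alone rose, and KLF4 (20.03 and 39.4 against 8.05 and 4.76 FPKM, limma adjusted p = 0.0580) and ELF3 (4.04 and 7.17 against 0.796 and 1.39 FPKM, 0.0660), both transcription factors, were held higher and not called. ARGFX, a homeobox gene of this set, had 51.4 and 88.3 against 497 and 105 FPKM (0.128). Among 20 pluripotency and lineage factors, 2 rose, HAND1 and the keratin gene KRT8 (8.64 and 24.98 against 2.10 and 0.0367 FPKM, 0.0463), and DAB2, of extraembryonic endoderm, was held higher (5.70 and 7.02 against 1.42 and 1.37 FPKM, 0.0624). Of 17 genes in the imprinted list, 1 rose, the regulator gene ZFP57, whose protein guards methylation at imprinted regions (3.59 and 4.72 against 0.438 and 0.0107 FPKM, 0.0383). BLCAP was held higher (7.02 and 7.65 against 1.67 and 1.52 FPKM). X-linked housekeeping genes had medians of 0.57 and 0.88, with 2 of 42 called higher, TIMP1 and EMD (15.5 and 30.8 against 1.22 and 3.92 FPKM). Of these called genes, HAND1 alone was called without SCNT replicate 2. HAND1, ZFP57 and TIMP1 entered through the SCNT pair alone, so they had to be higher there. Over the 5 embryo lists, 3 of 13 called genes were called without SCNT replicate 2, 5 without IVF replicate 1 and 8 without IVF replicate 2.

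Of 78 gene lists, marker lists included, 75 had at least 5 genes described. In 49 of these the list median lay above that of all genes in both SCNT libraries, in 8 below it in both, in 11 above it in replicate 1 alone and in 7 above it in replicate 2 alone. The lists hold 2782 different genes, of which 124 were called higher and 10 lower. Of those 134, 9 were called without SCNT replicate 2, 34 without IVF replicate 1, 50 without IVF replicate 2 and all without SCNT replicate 1. Most genes belong to no list, as the lists hold 2782 of the 9970 described. Outside every list were 71 of the 81 genes called lower and 181 of the 305 called higher. Of the 81, 47 carry LOC numbers.

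**Figure D5:**
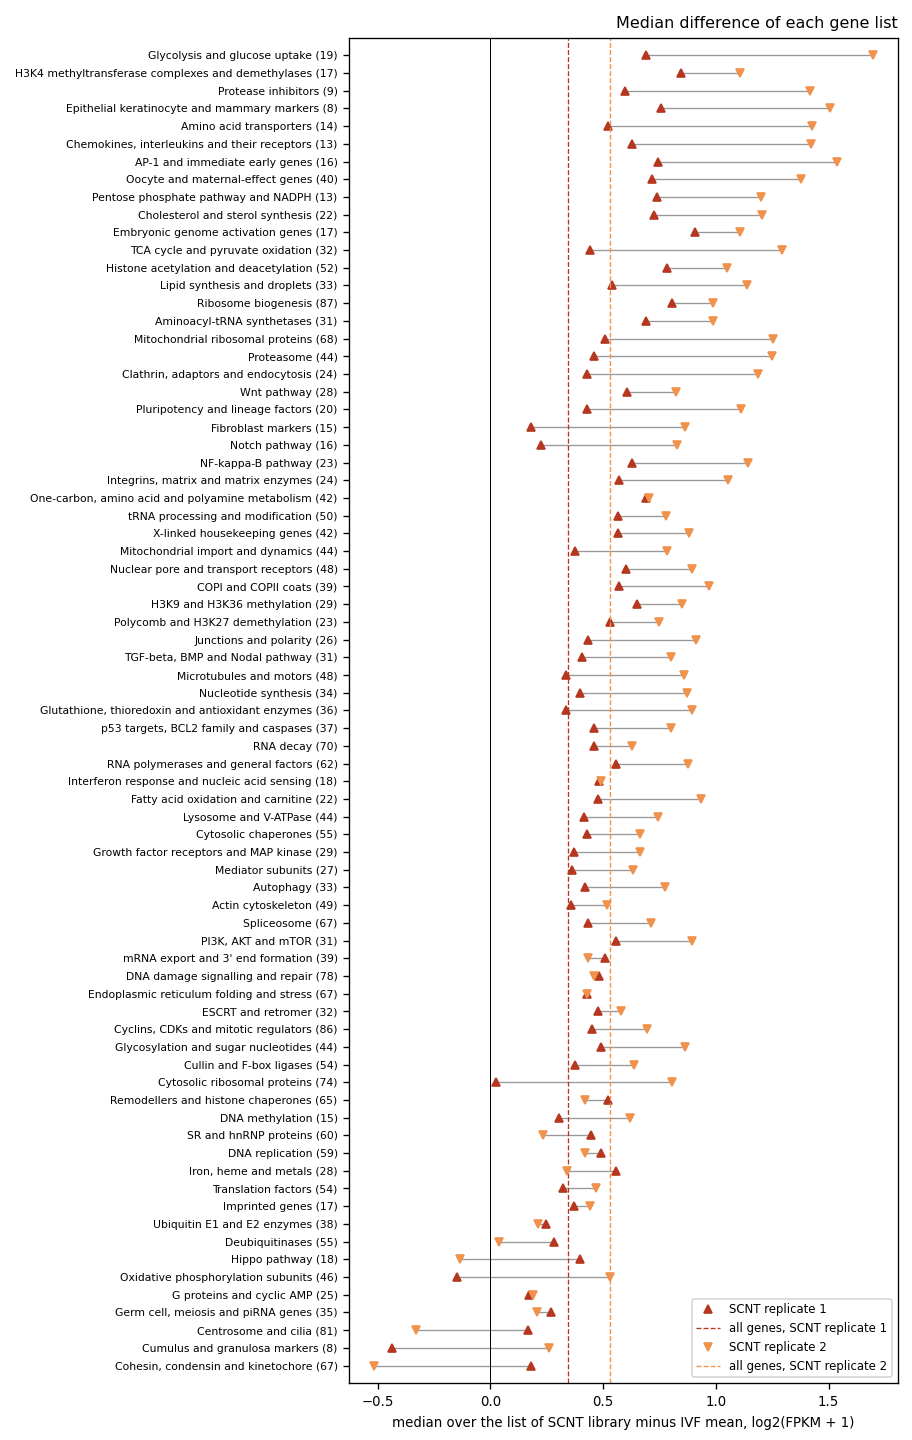
Median over each of the 75 gene lists of the difference of SCNT replicate 1 (red triangles) and SCNT replicate 2 (orange triangles) from the IVF mean, on the log2(FPKM + 1) scale, with the number of genes in brackets and dashed lines at the medians of all genes, 0.34 and 0.53. Glycolysis is at the top with its libraries far apart, ribosome biogenesis is high in both, and cohesin, condensin and kinetochore genes, centrosome genes and the Hippo pathway have a median under 0 in SCNT replicate 2.

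Called genes of signalling and secretion were spread over many pathways. Of 257 genes in 12 such lists, 19 rose (7.39%, against 3.06% of all genes), 1 fell and 237 were not called. Of the 222 at 1 FPKM or more in a library of each group, 10 rose, against 186 of all 8882 such genes. In the Wnt pathway, in which secreted ligands bind Frizzled receptors and stabilise beta-catenin, the ligand gene WNT16 fell while 3 others rose. These were the receptor gene FZD6 (16.2 and 19.4 against 1.01 and 3.19 FPKM, limma adjusted p = 0.0389), CTNNB1, which encodes beta-catenin (83.5 and 107 against 21.2 and 24.7 FPKM, 0.0425), and DKK3, a Dickkopf family member (7.09 and 25.7 against 0.913 and 1.37 FPKM, 0.0484). In the TGF-beta and BMP pathway the ligand gene BMP2 (3.89 and 4.56 against 0.519 and 0.0496 FPKM, 0.0389) and the BMP target ID3, an inhibitor of helix-loop-helix factors (102 and 235 against 20.2 and 17.7 FPKM, 0.0280), rose. The receptor gene ACVR1B (14.4 and 19.1 against 3.03 and 5.76 FPKM) and the proprotein convertase gene FURIN (5.91 and 6.96 against 0.922 and 1.79 FPKM) were held higher and not called.

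Of 29 growth factor receptor and MAP kinase genes, DUSP1, a phosphatase that switches off MAP kinases, alone rose (7.22 and 18.7 against 0.976 and 0.489 FPKM, limma adjusted p = 0.0383). Of 31 genes of PI3K, AKT and mTOR signalling, DDIT4, an inhibitor of mTOR complex 1, alone rose (10.04 and 27.5 against 1.60 and 0.970 FPKM, 0.0387). Of 16 AP-1 and immediate early genes, 3 rose (FOS, ZFP36 and FOSL2, the last at 3.01 and 9.21 against 0.230 and 0.192 FPKM) and NR4A1 (15.9 and 38.4 against 3.38 and 5.36 FPKM) and KLF4 were held higher; 5 of the 16 entered through the SCNT pair alone, all 3 called genes among them. Of 13 chemokine and interleukin genes with their receptors, 6 were held higher (46.2%, against 9.65% of all genes), and 1 entered through the SCNT pair alone. Besides CCR7, the cytokine genes IL6 (34.1 and 13.98 against 2.09 and 0.578 FPKM, 0.0318) and IL1A (14.1 and 21.4 against 1.61 and 3.90 FPKM, 0.0463) rose, and the receptor gene IL1R1 was held higher (6.32 and 6.32 against 1.79 and 1.65 FPKM). SCNT replicate 1 was the higher SCNT library for IL6 and SCNT replicate 2 for IL1A. WWTR1, which encodes the Hippo effector TAZ, rose (4.35 and 3.91 against 0.589 and 0.333 FPKM), as did the NF-kappa-B inhibitor gene NFKBIE (5.95 and 13.4 against 0.987 and 0.701 FPKM).

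Interferon-response genes differed in direction, with more held higher than lower. Of 18 described, 5 were held higher (27.8%, against 9.65% of all genes) and 2 lower. Of the 14 at 1 FPKM or more in a library of each group, 4 were held higher (28.6%, against 7.62% of all such genes). DHX58, a sensor of viral RNA (8.26 and 22.9 against 1.49 and 1.56 FPKM), and STAT2 (10.8 and 14.1 against 2.03 and 2.61 FPKM) rose, whereas IFIT5 (8.999 and 10.2 against 25.5 and 25.6 FPKM, limma adjusted p = 0.0817) and the class I histocompatibility subunit gene B2M (48.2 and 58.3 against 223 and 121 FPKM, 0.0648) were held lower without being called. No gene of the Notch list was called or held. Of the 20 called signalling genes, WNT16, CCR7 and FOS were called without SCNT replicate 2, 9 without IVF replicate 1 and 9 without IVF replicate 2. After quantile normalization 10 were called: WNT16, ID3, DUSP1, DDIT4, CCR7, IL6, FOS, ZFP36, PI3 and TIMP1.

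Of 172 genes of membrane traffic and lysosomes, 11 rose (6.395%, against 3.06% of all genes), none fell and 161 were not called. Of the 157 at 1 FPKM or more in a library of each group, 9 rose, against 186 of all 8882 such genes. Over the class, 25 genes were held higher (14.5%, against 9.65% of all genes) and 1 lower. Of the 157, 21 were held higher, against 7.62% of all genes at 1 FPKM or more in a library of each group. Lysosomal proteins gave 5 of the 11, among them SCPEP1, the proton pump subunit gene ATP6V0C (18.2 and 28.9 against 2.95 and 3.11 FPKM, limma adjusted p = 0.0353), PSAP, the precursor of the saposins (14.5 and 27.8 against 2.99 and 2.92 FPKM, 0.0425), and GM2A, which presents gangliosides for breakdown (27.9 and 48.03 against 8.42 and 1.19 FPKM). Autophagy gave SQSTM1 and ATG101 (14.5 and 47.3 against 2.37 and 3.39 FPKM). The ESCRT machinery, which buds vesicles into endosomes, gave CHMP7 (8.96 and 15.6 against 1.34 and 1.51 FPKM) and CHMP1A (8.50 and 14.2 against 1.26 and 1.78 FPKM), and vesicle coats and their regulators COPE (38.2 and 95.6 against 6.67 and 13.00 FPKM) and PREB (2.23 and 3.25 against 0.0822 and 0.179 FPKM). Of the 11, SCPEP1 alone was called without SCNT replicate 2, 3 were called without IVF replicate 1, 4 without IVF replicate 2 and 3 after quantile normalization.

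Of 147 genes of the cytoskeleton and the cell surface, 7 rose (4.76%, against 3.06% of all genes) and none fell. Of the 137 at 1 FPKM or more in a library of each group, 4 rose, against 186 of all 8882 such genes. Actin regulators differed in direction. CFL1, which encodes the actin-severing cofilin, rose (161 and 279 against 50.5 and 46.1 FPKM, limma adjusted p = 0.0425), whereas TMSB4X, which keeps actin monomers from assembling, had lower values, as given above. CAPG, a capping protein gene (3.01 and 4.96 FPKM in SCNT), and TPM2, a tropomyosin gene (3.42 and 2.62 FPKM), were both listed at 0 in both IVF libraries and were called (0.0280 and 0.0295). Among microtubule genes, TUBA1A (39.3 and 85.9 against 7.81 and 2.57 FPKM) and TBCC, which helps to fold tubulin (17.8 and 16.8 against 3.81 and 3.86 FPKM), rose, while DYNLL1, a dynein light chain gene, had 234 and 315 against 725 and 434 FPKM (0.138). The tetraspanin gene CD9, needed on the egg for fusion with sperm, rose (21.4 and 35.9 against 3.56 and 3.79 FPKM, 0.0343), as did ADAMTS1 (3.51 and 5.05 against 0.612 and 0.274 FPKM). CAPG, TPM2 and ADAMTS1 entered through the SCNT pair alone. None of the 7 called genes was called without SCNT replicate 2, 2 were without IVF replicate 1 and 3 without IVF replicate 2. After quantile normalization 5 were called (CFL1, CAPG, TPM2, TUBA1A and CD9).

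Of 427 metabolic genes, 26 rose (6.09%, against 3.06% of all genes), 1 fell and 57 were held higher (13.3%, against 9.65%). Of the 385 at 1 FPKM or more in a library of each group, 21 rose, against 186 of all 8882 such genes. Held higher were 46 of the 385, against 7.62% of all such genes. Of 19 glycolysis and glucose uptake genes, 4 rose, the enolase gene ENO1 (38.5 and 84.1 against 5.92 and 4.45 FPKM, limma adjusted p = 0.0263), PKM (29.9 and 65.2 against 8.19 and 6.01 FPKM, 0.0425) and the glucose transporter genes SLC2A1 (24.1 and 29.7 against 2.29 and 4.44 FPKM, 0.0323) and SLC2A3 (73.2 and 193 against 28.3 and 14.3 FPKM, 0.0496), and 2 more were held higher. The list medians were 0.69 in SCNT replicate 1 and 1.70 in SCNT replicate 2, the widest split of the 75 lists. In the pentose phosphate pathway, which makes NADPH and ribose, TKT rose with the SCNT replicates level, and RPE was held higher (14.9 and 22.1 against 6.57 and 6.65 FPKM).

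Among genes of biosynthesis from amino acids and nucleotides, UMPS, which makes the pyrimidine nucleotide UMP (23.04 and 27.98 against 2.24 and 3.44 FPKM, limma adjusted p = 0.0280), rose. So did the antizyme genes OAZ1 (184 and 226 against 52.7 and 54.9 FPKM) and OAZ2 (40.5 and 61.1 against 9.47 and 9.36 FPKM), whose products curb polyamine synthesis. The amino acid transporter subunit gene SLC3A2 rose (48.6 and 76.7 against 8.57 and 11.3 FPKM), and SLC1A5 was held higher (9.80 and 24.3 against 3.51 and 1.32 FPKM). Lipid genes called higher were the sterol receptor gene NR1H2 (19.5 and 43.2 against 2.55 and 4.63 FPKM), the ceramide synthase gene CERS2 (64.6 and 74.8 against 12.4 and 21.7 FPKM) and ACSS2, which makes acetyl-CoA from acetate (2.67 and 3.48 against 0.0959 and 0.239 FPKM). ALAS1, the first enzyme of heme synthesis, had 0 and 0.0146 FPKM in IVF, against 2.97 and 4.25 FPKM in SCNT (0.0280).

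The SCNT libraries differed in mitochondrial genes. Oxidative phosphorylation subunits had medians of −0.15 in SCNT replicate 1 and 0.53 in replicate 2, and the tricarboxylic acid cycle 0.44 and 1.29. NDUFV1, of respiratory complex I, was held higher (5.20 and 17.4 against 0.271 and 1.43 FPKM), while NDUFV2, of the same complex, was held lower (10.8 and 5.79 against 24.7 and 28.4 FPKM, limma adjusted p = 0.0689). Mitochondrial import genes TIMM22 (7.58 and 17.1 against 1.12 and 0.752 FPKM) and TIMM13 (8.22 and 12.97 against 2.03 and 0.443 FPKM) and the matrix protease gene CLPP (42.3 and 155 against 4.46 and 14.9 FPKM) rose. Over all metabolic lists, of 27 called genes TKT alone was called without SCNT replicate 2, 7 without IVF replicate 1, 10 without IVF replicate 2, and 10 after quantile normalization, among them ENO1, SLC2A1, UMPS, SLC3A2, TIMM22, CHAC1 and ALAS1.

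Of 737 genes of RNA and protein synthesis in 13 lists, 22 rose (2.99%, near the 3.06% of all genes), 2 fell and 713 were not called. Held higher were 106 (14.4%, against 9.65%), and 5 were held lower. At 1 FPKM or more in a library of each group were 679, of which 80 were held higher, against 7.62% of all such genes. Ribosome biogenesis, the assembly of ribosomes in the nucleolus, had SCNT libraries close to each other, with medians of 0.81 and 0.99. Of 87, 3 rose (3.45%, near the 3.06% of all genes), DDX56 (5.74 and 20.6 against 0.314 and 0.983 FPKM), RRP1 (8.10 and 20.5 against 1.52 and 1.78 FPKM) and RRP9 (4.81 and 12.5 against 0.745 and 0.819 FPKM). Held higher were 19 (21.8%, against 9.65% of all genes), among them FBL, which methylates ribosomal RNA (8.92 and 17.1 against 2.35 and 1.99 FPKM). Through the SCNT pair alone 14 entered. Of the 73 at 1 FPKM or more in a library of each group, 12 were held higher (16.4%, against 7.62% of all such genes). NPM1, a nucleolar protein gene of high level, had 435 and 265 against 537 and 536 FPKM (limma adjusted p = 0.297).

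The ribosomal proteins themselves did not behave alike in the SCNT libraries. Cytosolic ribosomal proteins had medians of 0.03 in SCNT replicate 1 and 0.81 in replicate 2. None of 74 was called, and 3 were held higher: RPL13A (71.9 and 113 against 29.8 and 32.7 FPKM), RPS2 (123 and 197 against 49.03 and 57.2 FPKM) and RPS9 (4.35 and 14.7 against 1.52 and 0.882 FPKM). RPSA had 351 and 1416 against 330.3 and 223 FPKM, with SCNT replicate 1 close to the IVF libraries and replicate 2 far above. Mitochondrial ribosomal proteins had medians of 0.51 and 1.25, and MRPL12 (5.55 and 6.08 against 0.661 and 0 FPKM) and MRPL37 rose.

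Translation factors had 12 of 54 genes held higher (22.2%, against 9.65% of all genes). Among the 50 at 1 FPKM or more in a library of each group, 11 were held higher (22%, against 7.62% of all such genes). The list medians (0.32 and 0.47) lay just under those of all genes. After quantile normalization both lay above. The 4 that rose were EIF5A, which is needed to translate proline stretches (131 and 174 against 9.74 and 19.7 FPKM, limma adjusted p = 0.0223), the elongation factor gene EEF2 (14.8 and 29.8 against 2.34 and 2.05 FPKM, 0.0350), EIF3G (16.8 and 26.6 against 3.09 and 2.43 FPKM) and the oocyte cap-binding protein gene EIF4E1B (138 and 272 against 44.7 and 37.98 FPKM). Of 31 aminoacyl-tRNA synthetase genes, HARS rose (7.58 and 19.9 against 1.42 and 1.49 FPKM) and 7 were held higher (22.6%, against 9.65%). Of the 26 at 1 FPKM or more in a library of each group, 5 were held higher (19.2%, against 7.62% of all such genes). QTRT1, which builds queuosine into transfer RNA, had 4.91 and 21.03 against 0.0809 and 0.220 FPKM (0.0386). Splicing and export genes that rose included PTBP1 (64.5 and 106 against 10.9 and 17.5 FPKM), SRSF9 (108 and 114 against 22.9 and 27.4 FPKM), SNRPB (11.9 and 38.6 against 2.95 and 0.499 FPKM) and THOC3 (132 and 189.8 against 34.4 and 32.4 FPKM), against the falls of RSRP1 and C1D. No called gene of these 13 lists was called without SCNT replicate 2, 6 of 24 were without IVF replicate 1 and 7 without IVF replicate 2. After quantile normalization 9 were called: RSRP1, PTBP1, THOC3, C1D, MRPL12, MRPL37, EIF5A, EEF2 and QTRT1.

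In protein folding and degradation, the proteasome, which destroys ubiquitin-tagged proteins, gave 5 of the 8 rises among 313 genes (2.56% of them, against 3.06% of all genes). Its called subunits included the catalytic PSMB5 (106 and 250.1 against 29.1 and 34.4 FPKM, limma adjusted p = 0.0445) and, of the regulatory cap, PSMD13 (17.8 and 32.3 against 3.91 and 4.36 FPKM), PSMD8 (12.3 and 39.1 against 1.67 and 2.92 FPKM) and ADRM1 (15.2 and 59.1 against 1.67 and 4.41 FPKM). In each of these 4, SCNT replicate 2 was the highest library. The list medians were 0.46 and 1.25. The ubiquitin-conjugating enzyme gene UBE2J2 rose (46.03 and 85.97 against 6.06 and 11.2 FPKM, 0.0348), as did the chaperonin subunit gene CCT5 (99.4 and 113 against 20.5 and 30.3 FPKM), and UCHL3, a deubiquitinase gene, was held lower (66.2 and 86.00 against 177 and 195 FPKM, 0.0757). Deubiquitinases as a list lay below all genes in both libraries (0.28 and 0.04), as did ubiquitin E1 and E2 enzymes (0.25 and 0.21). No called gene was called without SCNT replicate 2 or without IVF replicate 1, 4 of 9 were without IVF replicate 2, and UBE2J2 and DNAJC12 were after quantile normalization.

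Of 405 genes that copy and divide the genome, 9 rose (2.22%, against 3.06% of all genes) and 3 fell (0.741%, against 0.812%), and the share held higher (8.89%) was near that of all genes (9.65%). In DNA replication the helicase subunit gene MCM5 rose (26.1 and 60.01 against 4.20 and 6.11 FPKM, limma adjusted p = 0.0387), and POLE2, of polymerase epsilon (28.96 and 19.05 against 81.5 and 99.5 FPKM, 0.0485), and KIAA0101 fell. PCNA, the clamp that KIAA0101 binds, had 899 and 979 against 1814 and 1361 FPKM (0.226). Repair genes that rose were FANCF (6.52 and 12.1 against 1.38 and 1.17 FPKM), DDB2 (8.01 and 19.9 against 1.37 and 1.91 FPKM), the checkpoint kinase gene CHEK2 (4.53 and 4.91 against 0.923 and 0.317 FPKM) and APEX2 (199.8 and 364 against 47.8 and 70.2 FPKM), and cell-cycle genes that rose included the inhibitor gene CDKN1A (2.58 and 9.40 against 0.122 and 0.138 FPKM), PLK3 (18.6 and 41.4 against 3.10 and 5.29 FPKM) and the kinesin gene KIF22 (26.8 and 46.7 against 7.04 and 3.62 FPKM).

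The lowest list medians in SCNT replicate 2 were in chromosome segregation. Cohesin, condensin and kinetochore genes had medians of 0.18 in SCNT replicate 1 and −0.51 in replicate 2, and centrosome and cilia genes 0.17 and −0.33, below all genes in both libraries. After quantile normalization the first of these lists lay above all genes in SCNT replicate 1. SKA1, of the kinetochore, stood at 777 and 735 FPKM in IVF, against 805 and 178 FPKM in SCNT, and ESCO2, which locks cohesin, at 612 and 699 and 494 and 261 FPKM, and neither was called (limma adjusted p = 0.320 and 0.211). None of the 67 was called, and 4 were held higher, STAG2, PMF1, CENPT and INCENP. Of the 81 centrosome and cilia genes CETN2 alone was called. Of 12 called genes in the 6 genome lists, none was called without SCNT replicate 2, 1 was without IVF replicate 1, 3 were without IVF replicate 2, and KIAA0101, APEX2 and CETN2 were after quantile normalization.

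Chromatin genes, which set how readable the transferred nucleus is, had 7 rises among 200 (3.50%, near the 3.06% of all genes) and 2 falls. Held higher were 28 (14.0%, against 9.65%). Of the 177 at 1 FPKM or more in a library of each group, 20 were held higher, against 7.62% of all such genes. The histone chaperone gene ASF1B (145 and 224 against 14.7 and 30.6 FPKM, limma adjusted p = 0.0280) and TRIM28, the corepressor of zinc finger proteins (9.79 and 14.5 against 1.04 and 1.02 FPKM, 0.0295), rose. The nucleosome binder HMGN5, which entered through the IVF pair alone, fell. RUVBL2, of the INO80 and TIP60 remodellers (10.9 and 33.3 against 2.36 and 2.50 FPKM), the acetyltransferase gene KAT2A (15.8 and 31.2 against 3.03 and 4.54 FPKM) and ING4 (14.3 and 26.2 against 2.74 and 4.03 FPKM) rose too. The lists for histone H3 lysine 4 methylation (medians 0.85 and 1.11) and for histone acetylation (0.79 and 1.05) lay above all genes in both libraries. In the first, none of 17 was called and 4 were held higher (23.5%, against 9.65%). These were the demethylase genes KDM1A, KDM5A and KDM5C and the methyltransferase subunit gene ASH2L (19.3 and 29.7 against 7.05 and 8.31 FPKM). In the lysine 4 list, 14 genes stood at 1 FPKM or more in a library of each group. Of these 14, 3 were held higher (21.4%, against 7.62% of all such genes). No DNA methylation gene was called or held. Without SCNT replicate 2, SETD9 was called and the other 8 were not; without IVF replicate 1 and without IVF replicate 2, 2 were called each, and TRIM28, SETD9, ASF1B and HMGN5 were after quantile normalization.

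Of 37 p53 targets, BCL2 family members and caspases, 6 rose (16.2%, against 3.06% of all genes) and none fell. Of the 33 at 1 FPKM or more in a library of each group, 3 rose, against 186 of all 8882 such genes. The other called genes, BAD and CDKN1A among them, entered through the SCNT pair alone. The called genes act on both sides of cell death. BCL2L10 favours survival, BAD promotes death (2.70 and 2.57 against 0.124 and 0.0844 FPKM, limma adjusted p = 0.0391), and DFFA inhibits the nuclease that cuts DNA in dying cells (36.3 and 56.9 against 5.38 and 8.63 FPKM, 0.0353). CDKN1A and PLK3 rose too, and CASP6 was held higher (165 and 188 against 76.2 and 78.04 FPKM). BCL2L10 alone was called without SCNT replicate 2, none without IVF replicate 1, and BCL2L10 and DFFA after quantile normalization.

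Some of the widest differences belonged to 1 SCNT library alone. Among genes whose IVF libraries lay within 1 of each other, SCNT replicate 2 exceeded replicate 1 most for GPR34, a receptor for lysophosphatidylserine, at 0.317 and 15.8 FPKM in SCNT, against 6.59 and 7.74 FPKM in IVF. GH1, growth hormone (0.700 and 11.9 against 0.445 and 1.06 FPKM), PPDPF (1.77 and 19.6 against 5.47 and 5.15 FPKM) and the peptide hormone gene ADM (3.56 and 30.02 against 6.72 and 5.18 FPKM) followed. The 8 genes with the largest excess also included HCRT (1.59 and 15.6 against 0 and 0.330 FPKM), NDUFS7, of respiratory complex I (1.39 and 14.03 against 0.780 and 0.779 FPKM), and LSM10, which helps to process histone messages (25.2 and 160.0 against 9.53 and 17.9 FPKM). In all 8, SCNT replicate 2 lay above both IVF libraries, and in GPR34, PPDPF and ADM replicate 1 lay below both.

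The reverse pattern, SCNT replicate 2 low and replicate 1 near or above IVF, was widest for the ubiquitin ligase gene ZNRF2 (103 and 10.1 against 171 and 155 FPKM) and for CBFB, the partner of RUNX transcription factors (260.1 and 32.2 against 209.8 and 235 FPKM). RPA3, which coats single-stranded DNA (24.3 and 2.30 against 12.9 and 7.41 FPKM), ZFAND6 (129 and 16.99 against 139 and 134 FPKM), TAF13, of general factor TFIID (171 and 23.7 against 103 and 104 FPKM), GNPNAT1 (36.4 and 4.67 against 11.5 and 10.3 FPKM), MB21D2 (278 and 42.6 against 94.8 and 123 FPKM) and ACSM3 (24.1 and 3.01 against 30.01 and 25.3 FPKM) followed. In all 8, SCNT replicate 2 lay below both IVF libraries, and in CBFB, RPA3, TAF13, GNPNAT1 and MB21D2 replicate 1 lay above both. None of these 16 genes was held or called. A difference between single libraries cannot be told apart from one between the embryos in them.

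Markers of other cells were checked beside these results. Summed FPKM of 21 cumulus and granulosa markers was 103 and 110.4 in IVF and 82.6 and 122 in SCNT, with FSHR, AMH, INHA and INHBB listed at 0 in all 4 libraries, and none of the 8 described was called or held. The 34 fibroblast markers summed to 168 and 157 in IVF and 138 and 184 in SCNT, with DCN the highest marker in each library. Among the 15 described, the groups did not overlap in 8 with higher and 3 with lower SCNT values (46.9% and 17.1% of all tested entries). The 8 included COL1A2 (6.41 and 6.20 against 3.22 and 2.44 FPKM) and VIM (11.4 and 6.25 against 2.15 and 4.09 FPKM). Of the 15 described, TIMP1 and TAGLN (4.85 and 4.94 against 0.659 and 0.389 FPKM) rose and COL3A1 was held higher (2.41 and 1.63 against 0.185 and 0.126 FPKM). All 3 entered through the SCNT pair alone, so they had to be higher there. DCN was held lower (33.9 and 39.5 against 94.3 and 85.5 FPKM, limma adjusted p = 0.0776). COL1A1 stood at 0.730 and 0.993 against 0.227 and 0.505 FPKM and THY1 at 0.0155 and 0.0617 against 0.0480 and 0 FPKM. Blood and immune markers summed to 3.84 and 5.91 in IVF and 4.93 and 17.9 in SCNT, with CD79A and AIF1 at 0 in all 4 and PTPRC at 0.0639 and 0.223 against 0.190 and 1.02 FPKM. Sperm markers summed to 12.6 and 17.1 in IVF and 23.9 and 36.6 in SCNT, most of it ODF2 and none of it called. Epithelial markers, of which 8 are described, summed to 71.4 and 73.02 in IVF and 92.3 and 99.9 in SCNT, with KRT8 called and ELF3 held higher, both also counted among the embryo genes. The part of other cells in the results above was not tested.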

How the data were processed

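Smart-seq2 libraries of 8-cell goat embryos, 2 IVF and 2 SCNT, were used. The authors deposited FPKM values. Tools named in the submitters' processing notes, with no role, are HTSeq, HISAT2 2.2.1 and fastp. For the build, annotation and scaling total: not given in the sources used here. All columns of the table used matched a sample. Log2(FPKM + 1) values of entries that reached 1 FPKM in 2 or more libraries were fitted with limma 3.58.1 in R 4.3.3 (eBayes with a trend, no pairing, Benjamini-Hochberg adjustment over 10303 entries). Annotated lncRNA entries were left out after the fit. Log2 differences understate ratios at low level. On simulated data the fit recovered 66% of changes of 2 and 92% of changes of 4 (log2), 100 genes each among 10303. Of 10103 unchanged genes, 8 were called. Simulated noise followed each gene's fitted variance, alike in both groups and with no shift between libraries. The SCNT libraries here were less alike than the IVF libraries, so recovery in these data may differ.

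Named genes were the 15 called genes with the widest gap each way, the 10 held genes with the largest FPKM difference, the 8 each way with the largest difference between SCNT replicates, up to 4 called or held and 2 abundant members of each list, and 6 LOC genes each way. Dates, repeated names and rna-numbered entries were not eligible. Members and lists were chosen with earlier results of these data known. Gene types and order came from RefSeq (ARS1.2), in which 9918 of the 9970 genes matched a unique symbol. No histone gene of the histone list was among the genes described. Read totals are the value most often obtained from short genes (633 to 873 genes per library). Alternatives were other pseudocounts, filters, scalings, limma settings and gaps, leaving out each library, and a replicate block. Some genes that the rule names are not reported here.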

Additional observations from a re-analysis of the deposited data

How the results depend on the processing

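With 2 libraries per group, the number of calls depended on nearly every choice, while the direction of most named genes did not. Every called gene was also held, so its groups lay at least 1 apart. Leaving out a library could therefore not turn the direction of a called or held gene. Of 386 called genes, 131 were called with a filter of 5 FPKM (92 higher, 39 lower), 9 with a pseudocount of 5 FPKM (6 and 3) and 0 without a filter (0 and 0), where limma still gave 2470 genes an unadjusted p under 0.05 and more entries were tested. Rescaling to a common sum gave 1292 (1121 and 171), quantile normalization 250 (119 and 131) and median centring 361 (155 and 206). Leaving out 1 library gave 45 to 3759 calls, 13 to 2815 higher and 32 to 944 lower. The lowest counts came without SCNT replicate 2 and the highest without SCNT replicate 1. A pseudocount of 0.1 FPKM, limma without the trend or with robust settings, and leaving out lncRNA entries before the fit gave 276 to 405.

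The count of held genes, 1147 (962 higher, 185 lower), became 6414 (4764 and 1650) with a gap of 0 and 131 (86 and 45) with a gap of 2. It was 1893 (1624 higher) with a pseudocount of 0.1 FPKM, 398 (297 and 101) with 5 FPKM, and 641 genes were held higher with the filter of 5 FPKM. Rescaling to a common sum left 1459 held higher, median centring 388 higher and 480 lower, and quantile normalization 435 and 369. Lists above all genes in both SCNT libraries numbered 49, with 52 after quantile normalization and 50 with a pseudocount of 0.1 FPKM. Median centring shifts every gene of a library alike and leaves this count at 49 by construction, and no other alternative was run for it.

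The 290 named genes, 146 of them called, kept their direction except for 10 that were neither called nor held. Their log2 differences with 1 library left out ranged from −2.63 to 1.04 for GPR34, −0.021 to 2.90 for GH1, −1.19 to 1.71 for PPDPF, −0.60 to 2.17 for ADM, −2.75 to 0.23 for CBFB, −1.71 to 1.23 for RPA3, −2.07 to 0.72 for TAF13, −1.07 to 1.65 for GNPNAT1, −1.32 to 1.36 for MB21D2 and −2.08 to 0.091 for SKA1. The direction turned without SCNT replicate 1 for GPR34, GNPNAT1 and MB21D2, without SCNT replicate 2 for the other 7, and without IVF replicate 1 for RPA3 and MB21D2. Median centring and quantile normalization gave −0.23 and −0.19 for PPDPF, −0.20 and −0.17 for GNPNAT1 and −0.48 and −0.040 for MB21D2. The cause was not tested where libraries or scalings changed a value.

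The groups share replicate numbers in the labels, which do not say that a number marks a shared batch. The replicate differences of the IVF and SCNT pairs had a correlation of 0.12 across genes. With the replicate number as a block, 1880 genes were called, 1621 higher and 259 lower.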

Other observations

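Of the genes described, 15 entries carry an rna number in place of a gene name, and the RefSeq table gives no symbol for them. In all 15, SCNT replicate 2 had the lowest of the 4 values. In 7, SCNT replicate 1 also lay below both IVF libraries. Their summed level was 6793 and 4106 FPKM in IVF, against 3262 and 884 FPKM in SCNT. One was called, and it was lower in SCNT. The median difference from the IVF mean was −0.38 in SCNT replicate 1 and −2.46 in SCNT replicate 2. Numbers next to each other may stand for neighbouring or related transcripts, so the 15 are not independent.

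Among genes held lower, the SCNT libraries were ordered differently for genes with and without a symbol. SCNT replicate 2 was the higher SCNT library in 57 of 77 LOC genes and in 33 of 108 others. Median differences from the IVF mean were −3.44 and −2.29 (SCNT replicates 1 and 2) in the former and −1.51 and −1.94 in the latter. Whether the 2 kinds differ was not tested.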
